A study of Mus musculus with 6 samples.

Results

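The genes described here are 6 genes that mark megakaryocytes and platelets: *Vwf*, *Pf4*, *Gp5*, *Gp9*, *Itga2b* and *Cavin2*. They were chosen by name, and every probe annotated to them was read, which gave 7 probes (2 for *Itga2b* and 1 for each other gene) of the 22119 probes and 10528 named genes tested. All 7 probes passed the filter on low signal. Gene names covered only probes with deposited log2 values, from which the authors had dropped probes undetected in every sample, so little else was possible. RNA had been measured in 6 pools of LSK cells, the Lin- Sca-1+ c-Kit+ fraction of mouse bone marrow that holds hematopoietic stem cells (HSCs) and multipotent progenitors, to find what the loss of the transcription factor PU.1 (encoded by *Spi1*) changes there. The 3 wild-type pools came from *Spi1*+/+ *MxCre*+ mice and the 3 PU.1-deficient pools from *Spi1* fl/fl *MxCre*+ mice. Mice of both genotypes were C57BL/6, carried the MxCre transgene, were 6 to 12 weeks old and had been given 2 injections of polyIC (5 µg/g) 3 days apart. PolyIC induces MxCre through interferon signaling, so the recombinase acts in many blood and other cells and not in LSK cells alone, and the methods place the isolation of the cells 14 days after the treatment. Each pool held cells of 15 to 20 mice and was hybridized to 1 Illumina BeadChip array.

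Megakaryocytes are the large bone marrow cells that shed platelets. Their precursors fill alpha granules with proteins such as von Willebrand factor and platelet factor 4, and place on their surface the receptors with which platelets bind von Willebrand factor and fibrinogen. Transcripts of this program are also present in some HSCs of the mouse, in particular those with a bias toward platelet production, so that a sorted LSK fraction can hold them without mature megakaryocytes.

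All 6 genes fell in LSK cells that lacked PU.1. The fall ran from 2.62-fold for the integrin gene *Itga2b* to 10.8-fold for the chemokine gene *Pf4*, and the median log2 fold change of the 6 genes was -2.96, against -0.044 over all genes. All 6 passed the threshold (adjusted p under 0.05 from *limma*, Benjamini–Hochberg over all probes, 3 pools per genotype), in a comparison that called 3.91% of all probes lower and 4.89% higher. The 3 pools of one genotype did not overlap the 3 of the other for any of the 7 probes, as for 28.0% of all tested probes. The genes had been picked with their fall already known, so these counts describe the genes and are not independent evidence of their direction. In RNA from a bulk sample, fewer cells of a type and less RNA per cell cannot be told apart.

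**Figure D1:**
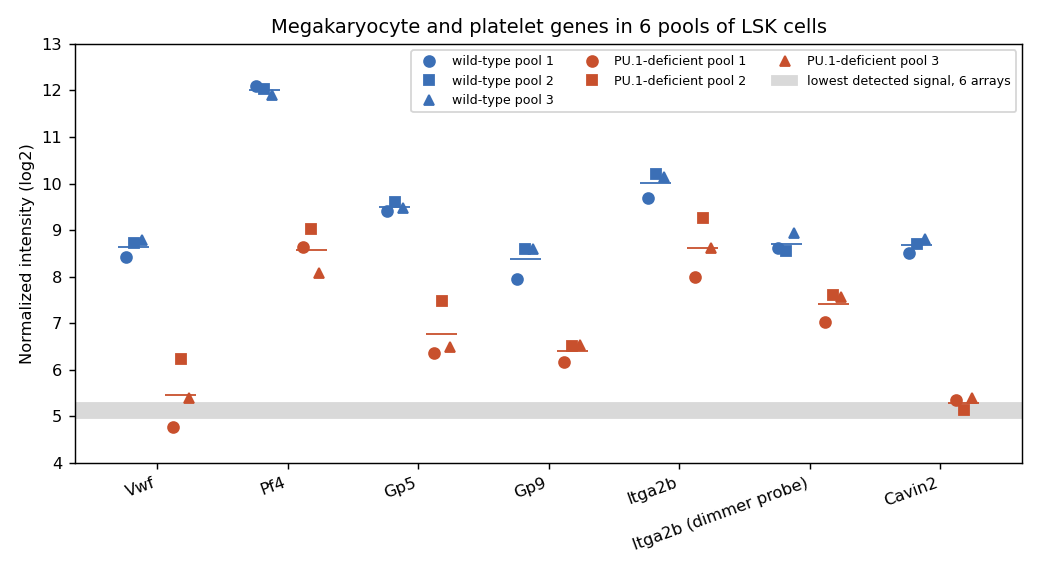
Normalized log2 intensity (vertical axis) of the 7 probes of the 6 genes in each of the 3 wild-type pools (blue) and 3 PU.1-deficient pools (red), with short lines at the group means and a grey band over the lowest detected signal of the 6 arrays. Every red point lies below every blue point of its probe, and the red points of *Vwf* and *Cavin2* lie in or near the band.

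The promoters of *Pf4*, *Gp5* and *Itga2b* are shown as examples. The targeted gene encodes a factor of the ETS family, whose members bind DNA around a GGAA core. Whether PU.1 acts on these promoters was not tested. The sequences are those of RefSeq for GRCm38.p6, 250 bases before to 50 after the annotated start, printed 5′ to 3′ in the direction of the gene, and 5 of the 6 genes matched an entry. *Pf4* lies on the plus strand (chr5:90772185-90772484), *Gp5* on the minus strand (chr16:30310732-30311031) and *Itga2b* on the minus strand (chr11:102469834-102470133). Capitals mark matches, on either strand, to the ETS motif AGGAAG, the PU.1-type motif GAGGAA, which overlaps AGGAAG by 5 bases, and the GATA motif AGATAA.
Pf4: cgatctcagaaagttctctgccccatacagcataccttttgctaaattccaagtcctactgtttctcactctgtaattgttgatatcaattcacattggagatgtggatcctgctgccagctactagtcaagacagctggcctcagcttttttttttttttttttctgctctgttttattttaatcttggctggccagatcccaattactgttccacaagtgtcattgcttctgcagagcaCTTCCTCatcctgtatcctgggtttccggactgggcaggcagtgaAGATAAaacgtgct
Gp5: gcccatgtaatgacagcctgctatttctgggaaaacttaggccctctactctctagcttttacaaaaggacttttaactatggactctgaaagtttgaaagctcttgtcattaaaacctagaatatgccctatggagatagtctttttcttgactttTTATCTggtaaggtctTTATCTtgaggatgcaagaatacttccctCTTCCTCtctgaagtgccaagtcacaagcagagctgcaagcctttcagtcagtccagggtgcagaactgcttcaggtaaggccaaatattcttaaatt
Itga2b: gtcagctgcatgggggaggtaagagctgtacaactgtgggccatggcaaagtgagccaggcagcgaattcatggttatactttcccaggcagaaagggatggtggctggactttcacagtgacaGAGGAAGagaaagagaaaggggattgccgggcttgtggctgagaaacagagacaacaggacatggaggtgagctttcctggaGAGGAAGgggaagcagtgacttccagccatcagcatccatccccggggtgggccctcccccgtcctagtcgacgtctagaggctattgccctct

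AGGAAG was found in all 5 promoters with an entry (*Pf4*, *Gp5*, *Gp9*, *Itga2b* and *Cavin2*), against 35.4% of all 32851 promoters of this length. GAGGAA was found in 4 of the 5, all but *Cavin2*, against 28.3% of all promoters. In *Itga2b* the joined GAGGAAG occurred at 2 places. On the other strand it began, as printed, at position -9 from the start in *Pf4*, -48 in *Gp5* and -16 in *Gp9*. AGATAA was found in *Pf4* and at 2 places in *Gp5*, against 11.2% of all promoters. TGTGGT, a RUNX motif, was found in *Gp9* only (16.8% of all promoters), and neither CGGAAG (16.9%) nor TGATAA (9.05%) occurred in the 5. Such matches describe the letters of these windows and do not show that a factor was bound.

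*Vwf* encodes von Willebrand factor, the adhesive protein that platelets carry in alpha granules and that endothelial cells also make. Its log2 intensity was 8.42, 8.73 and 8.79 in wild-type pools 1 to 3 and 4.76, 6.23 and 5.38 in PU.1-deficient pools 1 to 3. The 3 wild-type pools lay close together, and PU.1-deficient pool 2 kept the most signal. The mean went from 8.64 ± 0.20 to 5.46 ± 0.74 (SD, n = 3 each), for which *limma* gave a log2 fold change of -3.19 (with standard error 0.36, adjusted p = 0.00191). The *Vwf* probe missed the detection limit in PU.1-deficient pool 1, so the size of the fall rests in part on background signal there. The intensities as deposited, before any background was removed, were 510.5, 660.7 and 429.3 against 114, 110 and 135.8.

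*Pf4* encodes platelet factor 4 (CXCL4), a chemokine released from alpha granules. It gave 12.10, 12.03 and 11.89 in wild-type pools and 8.63, 9.03 and 8.08 in PU.1-deficient pools, and was detected in all 6. The highest PU.1-deficient pool was 2.87 below the lowest wild-type pool on the log2 scale. The mean went from 12.01 ± 0.10 to 8.58 ± 0.47 (SD, n = 3 each), and the log2 fold change of *Pf4* was -3.43 (*limma*, standard error 0.26, adjusted p = 0.000345). This fall ranked 12 among all 22119 probes, and those of *Cavin2* and *Vwf* ranked 14 and 21. The deposited intensities of *Pf4* were 5260.7, 5181.7 and 2992.8 against 471.6, 359.7 and 394.4, well above the median intensity of any array (89.5 to 116.5).

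*Gp5* and *Gp9* encode glycoproteins V and IX, which join glycoprotein Ib in the GPIb-IX-V complex, the platelet receptor for von Willebrand factor. Glycoprotein IX is needed for the complex to reach the surface, and glycoprotein V is cut by thrombin. The log2 intensity of *Gp5* was 9.40, 9.60 and 9.48 in wild-type pools and 6.35, 7.48 and 6.48 in PU.1-deficient pools. PU.1-deficient pool 2 again lay highest of its genotype, and it was also the array with the lowest mean intensity (262.8, against 299.0 to 451.2) and the fewest detected probes (15639, against 16890 to 18174), whose part in this was not tested. The log2 fold change of *Gp5* was -2.73 (*limma*, standard error 0.30, adjusted p = 0.00187), from a mean of 9.50 ± 0.10 to 6.77 ± 0.62 (SD, n = 3 each). *Gp9* gave 7.96, 8.60 and 8.60 in wild-type pools against 6.15, 6.51 and 6.53 in PU.1-deficient pools. Here the lowest pool of each genotype was pool 1, and the other 2 pools of each genotype nearly coincided. The log2 fold change of *Gp9* was -1.99 (*limma*, standard error 0.24, adjusted p = 0.00254), from 8.39 ± 0.37 to 6.40 ± 0.21 (SD, n = 3 each).

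*Itga2b* encodes integrin αIIb (CD41), which pairs with integrin β3 as the platelet fibrinogen receptor and is also present on early hematopoietic progenitors. Its brighter probe gave 9.69, 10.20 and 10.15 in wild-type pools and 7.99, 9.26 and 8.61 in PU.1-deficient pools. The groups were separated by 0.43, the smallest gap of the 7 probes, with PU.1-deficient pool 2 nearest to wild-type pool 1. The log2 fold change of this *Itga2b* probe was -1.39 (*limma*, standard error 0.33, adjusted p = 0.0421), from 10.01 ± 0.28 to 8.62 ± 0.63 (SD, n = 3 each). The dimmer probe gave 8.62, 8.54 and 8.95 against 7.02, 7.61 and 7.57, with a gap of 0.94. Its log2 fold change was -1.30 (*limma*, standard error 0.22, adjusted p = 0.0115), so the 2 probes differed by less than either standard error. The call of the brighter *Itga2b* probe was lost without PU.1-deficient pool 1 (log2 fold change -1.07, adjusted p = 0.106), PU.1-deficient pool 3 (-1.39, 0.129), wild-type pool 2 (-1.30, 0.149) or wild-type pool 3 (-1.33, 0.159), and that of the dimmer probe without wild-type pool 3 (-1.18, 0.0639). Both probes kept their call when wild-type pool 1 or PU.1-deficient pool 2 was left out.

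*Cavin2* encodes a coat protein of caveolae, the flask-shaped pits of the plasma membrane, and is an abundant phosphatidylserine-binding protein of platelets. It gave 8.51, 8.70 and 8.81 in wild-type pools and 5.35, 5.13 and 5.38 in PU.1-deficient pools. The pools of each genotype lay within 0.29 of each other and the gap between genotypes was 3.13, the widest of the 7 probes. The mean of *Cavin2* went from 8.67 ± 0.15 to 5.29 ± 0.14 (SD, n = 3 each), for which *limma* gave a log2 fold change of -3.39 (with standard error 0.17, adjusted p = 8.89e-05). PU.1-deficient pool 2, the highest of its genotype for *Vwf*, *Pf4*, *Gp5* and *Itga2b*, was the lowest for *Cavin2*, where the probe missed the detection limit.

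The share of signal left separated the genes when each was set against its wild-type mean on the linear scale. *Cavin2* kept 9.98%, 8.55% and 10.2% in PU.1-deficient pools 1 to 3, and *Pf4* kept 9.59%, 12.7% and 6.58%. *Vwf* kept 6.75%, 18.7% and 10.3%, and *Gp5* kept 11.3%, 24.6% and 12.3%. *Gp9* kept 20.8%, 26.7% and 27.1%, so it and the 4 genes above all lost most of their signal in every PU.1-deficient pool. The brighter *Itga2b* probe kept 24.3%, 58.6% and 37.5%, more than any other gene in pools 1 to 3, and the dimmer one kept 31.0%, 46.4% and 45.2%. With no background removed and no normalization, the mean share was 22.5% for *Vwf*, 9.12% for *Pf4*, 19.4% for *Gp5*, 33.6% for *Gp9*, 34.3% for *Itga2b* and 22.2% for *Cavin2*. The share left of *Vwf* and *Cavin2* thus moved with the treatment of the background, and that of *Pf4* hardly did. With normalization but no background correction, the log2 fold change was -1.75 for *Vwf*, -1.84 for *Cavin2*, -1.23 for *Gp9* and -3.13 for *Pf4*, each still past the threshold.

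**Figure D2:**
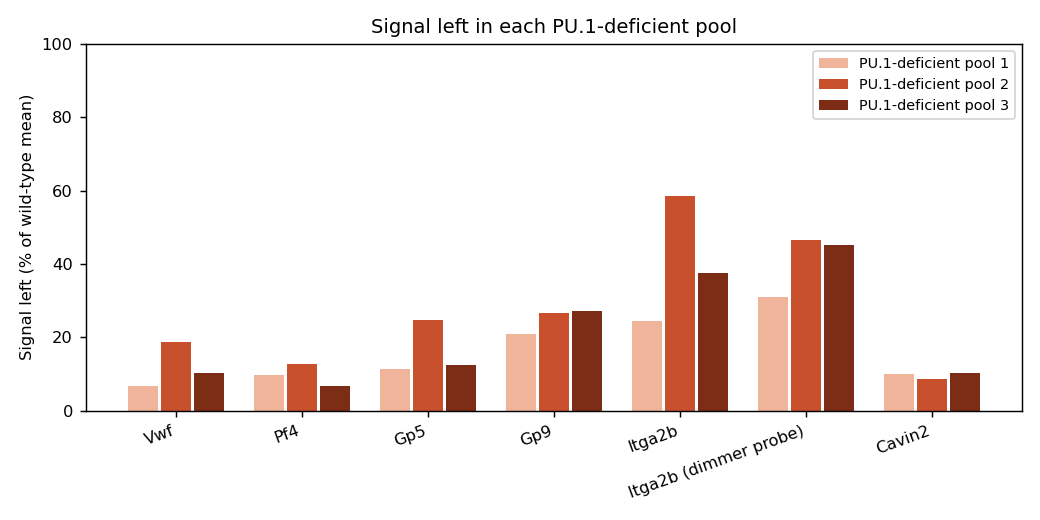
Signal left in PU.1-deficient pools 1, 2 and 3 (light to dark bars) as a percentage of the wild-type mean of the same probe, on the linear scale after background correction. *Itga2b* keeps 24.3% to 58.6% with its brighter probe, while *Cavin2* and *Pf4* keep 6.58% to 12.7%.

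The falls were also set against that of *Itga2b* within each array, where the difference between 2 log2 values is free of the array's scale. *Itga2b* was taken as the reference because its fall was the smallest of the 6, so the direction follows from that choice and no test is given. The difference from the brighter *Itga2b* probe fell by 2.04 for *Pf4*, by 1.99 for *Cavin2*, by 1.80 for *Vwf*, by 1.34 for *Gp5* and by 0.60 for *Gp9* (PU.1-deficient against wild-type means, log2). For *Gp9* the nearest pools were PU.1-deficient pool 1 (-1.83) and wild-type pool 1 (-1.73), a gap smaller than the spread within either genotype. These differences depend on the background step. With no background correction the log2 fold change was -1.18 for *Itga2b* and nearly the same for *Gp9* (-1.23). It was then -1.75 for *Vwf*, -1.84 for *Cavin2*, -1.94 for *Gp5* and -3.13 for *Pf4*.

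Across the 6 pools, the profiles of the genes, each centered on its own mean, were most alike for *Vwf* and *Gp5* (root mean square difference 0.28, log2) and least alike for *Pf4* and *Itga2b* (1.10). Among all other named genes, the profile nearest to that of *Vwf* was *Klk8* (0.27), nearest to *Pf4* was *Rgs10* (0.46), and nearest to *Gp5* was *Serpinf1* (0.20), which was also the second nearest to *Vwf* (0.30) and *Pf4* (0.51). *Gp9* was most like *Guca1a* (0.078) and *Ndrg1* (0.079), *Itga2b* was most like a probe of *Nol3* (0.045), and *Cavin2* was most like *Slc35d3* (0.27), a nucleotide sugar transporter needed for platelet dense granules in the mouse. This measure counts the size of the fall as well as the order of the pools. *Slc35d3* was undetected in every PU.1-deficient pool and *Cavin2* lay near the detection limit there, so their likeness rests in part on background signal.

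Of the genes next to these 6 on the chromosome, 5 were tested, and none of the 5 fell past the threshold. *Cd9*, a tetraspanin of platelets and many other cells whose gene lies next to *Vwf* in the GRCm38.p6 annotation, rose by 1.49 on the log2 scale (*limma*, standard error 0.30, adjusted p = 0.0221), opposite to *Vwf*. Its level was 9.06, 8.75 and 8.93 in wild-type pools and 10.87, 9.74 and 10.58 in PU.1-deficient pools. The 4 tested neighbors of *Gp5*, *Gp9*, *Itga2b* and *Cavin2* had log2 fold changes of -0.54 to 0.083 and did not pass the test (adjusted p = 0.566 to 0.982).

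The wider program was described with 7 lists of megakaryocyte and platelet genes. Without the 6 genes above, the lists held 67 genes, of which 46 were tested. Of these 46, 16 were lower (34.8%, against 5.59% of all genes by their brightest probe), 4 were higher (8.70%, against 6.61%) and 26 did not pass the threshold, and the median log2 fold change was -0.60, against -0.044 over all genes. The lists thus held genes that fell, genes that rose and, for the larger number, genes with no detected change. They were written by hand with earlier results of these data known, so these shares describe the lists. They are not independent evidence of a direction.

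**Figure D3:**
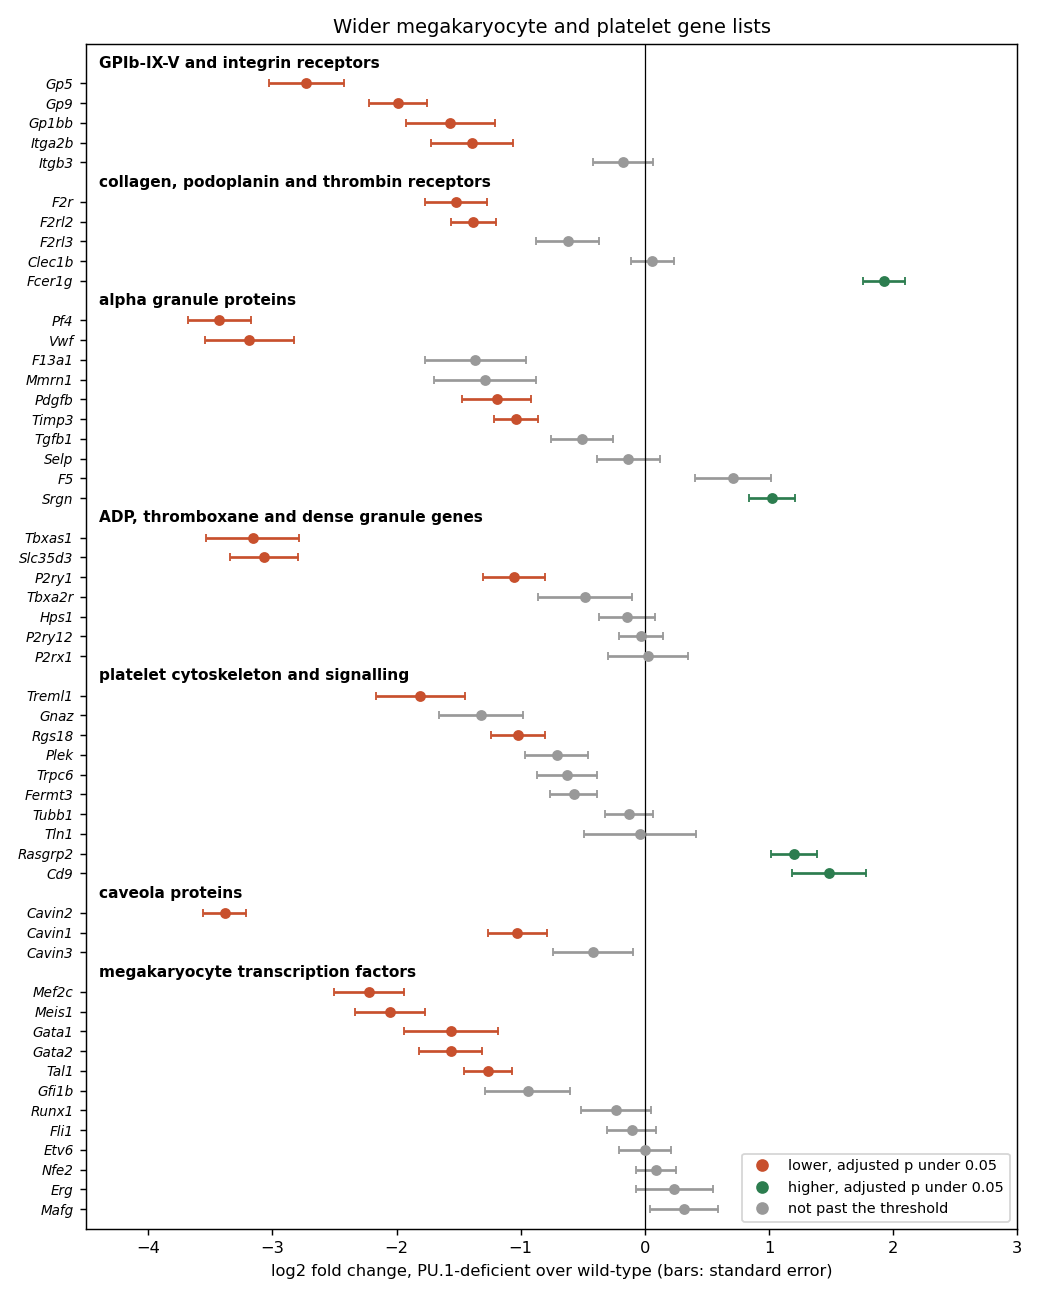
Log2 fold change of PU.1-deficient over wild-type LSK cells (horizontal axis) with its standard error (bars) for the tested genes of the 7 lists, the 6 genes included, by brightest probe. Red marks genes lower, green genes higher and grey genes not past the threshold, and *Pf4* and *Cavin2*, at -3.43 and -3.39, lie farthest to the left.

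Among receptors, the GPIb-IX-V and integrin list had 4 of 5 tested genes lower, 3 of them *Gp5*, *Gp9* and *Itga2b*. The other was *Gp1bb*, the β chain of glycoprotein Ib (log2 fold change -1.57, adjusted p = 0.0369 from *limma*). *Itgb3*, the β3 partner of *Itga2b*, was detected in 1 wild-type pool and in 0 PU.1-deficient pools (-0.18, adjusted p = 0.758), so these arrays hardly measured it. Of 5 tested receptors for collagen, podoplanin and thrombin, 2 were lower and 1 higher. *F2r*, a thrombin receptor, had a log2 fold change of -1.53 (adjusted p = 0.00947), and *F2rl2*, a thrombin receptor of mouse platelets, -1.38 (adjusted p = 0.0038). The *F2rl2* probe was above the detection limit in only 1 PU.1-deficient pool, and its log2 fold change was -0.48 with no background correction. *F2rl3*, the signaling thrombin receptor of mouse platelets, did not pass the test (-0.62, adjusted p = 0.211). *Fcer1g*, the signaling chain of the collagen receptor and of Fc receptors on myeloid cells, rose by 1.93 (adjusted p = 0.000662).

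Among granule genes, 4 of 10 tested alpha granule genes were lower, 2 of them *Vwf* and *Pf4*, and 1 was higher. The growth factor gene *Pdgfb* was not detected after the loss of PU.1, at least 1.78-fold lower (adjusted p = 0.0398), as was *Timp3*, an inhibitor of metalloproteases, at least 1.43-fold (adjusted p = 0.0115), although the other probe of *Timp3* showed no fall (0.056, adjusted p = 0.928). Such a bound sets the wild-type mean against the lowest signal detected on each PU.1-deficient array. *F13a1* (-1.37, adjusted p = 0.0923), *Mmrn1* (-1.29, adjusted p = 0.113) and *Tgfb1* (-0.51, adjusted p = 0.308) did not pass the test. *Srgn*, the proteoglycan that packs granules of many blood cells, rose by 1.03 (adjusted p = 0.0135). In the list of ADP, thromboxane and dense granule genes 3 of 7 were lower. These were *Tbxas1*, thromboxane A synthase (-3.16, adjusted p = 0.00256), *Slc35d3*, not detected after the loss of PU.1 and at least 6.38-fold lower (adjusted p = 0.000716), and the ADP receptor gene *P2ry1* (-1.05, adjusted p = 0.0411). The ATP receptor gene *P2rx1* showed no detected change (0.029, adjusted p = 0.978).

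Of 10 tested genes of the platelet cytoskeleton and signaling, 2 were lower, *Treml1*, a receptor of alpha granules (-1.81, adjusted p = 0.0206), and *Rgs18*, a regulator of G protein signaling (-1.02, adjusted p = 0.0283). *Cd9* and *Rasgrp2*, an activator of Rap1 (1.20, adjusted p = 0.0072), were higher, and the brightest genes without a call were *Fermt3* (-0.57, adjusted p = 0.127) and *Plek* (-0.71, adjusted p = 0.151). In the list of caveola proteins 2 of 3 were lower, *Cavin2* and *Cavin1* (-1.03, adjusted p = 0.0391), and *Cavin3* did not pass (-0.42, adjusted p = 0.545). The fall of *Cavin2* was larger than that of both other measured cavins, a difference that was not tested.

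Of 12 tested transcription factors of the megakaryocyte program 5 were lower and 0 higher, against 5.59% lower and 6.61% higher over all genes. The paper counts *Mef2c* among known targets of PU.1 and among factors needed for lymphoid priming, so this list is not confined to megakaryocyte factors. *Mef2c* had a log2 fold change of -2.22 (adjusted p = 0.00338), *Meis1* -2.05 (adjusted p = 0.00456), *Gata2* -1.56 (adjusted p = 0.00909), *Gata1* -1.56 (adjusted p = 0.045) and *Tal1* -1.26 (adjusted p = 0.0074). *Gata1*, the erythroid and megakaryocyte GATA factor, was above the detection limit in only 1 PU.1-deficient pool, its value with no background correction was -0.58 (adjusted p = 0.0775), and its other probe did not pass the test (-0.47, adjusted p = 0.539). In PU.1-deficient pools 1 to 3, *Treml1* was 6.25, 7.54 and 6.36, and *Gfi1b*, a repressor of the erythroid and megakaryocyte lineages, was 8.25, 9.55 and 8.39. For both genes PU.1-deficient pool 2 lay highest, as it did for *Vwf*, *Pf4*, *Gp5* and *Itga2b*. That pool lay lowest of its genotype for *F13a1* (7.80, 7.41 and 7.66), so this order was not common to all genes of the lists. It was also lowest for *Mmrn1* (6.43, 5.14 and 6.81), *F2rl2*, *Slc35d3* and *Cavin2*. There its values lay below the lowest signal detected on that array (5.28), so for these genes the order of the pools rests on background signal. *Gfi1b* did not pass the test (-0.95, adjusted p = 0.157), and neither did *Nfe2*, a factor needed for platelet release (0.088, adjusted p = 0.834), or its partner *Mafg* (0.32, adjusted p = 0.592).

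Several calls of the wider lists ended without 1 pool, and for *Srgn*, *Tbxas1*, *Rgs18*, *Rasgrp2* and *Meis1* 1 other probe of the gene did not pass the test (adjusted p = 0.151, 0.19, 0.0706, 0.155 and 0.222). Leaving out 1 pool ended the call for *Gp1bb*, *P2ry1*, *Treml1*, *Cd9* and *Srgn* without any pool but wild-type pool 1 or PU.1-deficient pool 2 (highest adjusted p = 0.152, 0.165, 0.0908, 0.0913 and 0.0702), for *Rgs18* without any pool but wild-type pool 1 or PU.1-deficient pool 3 (0.133), for *Cavin1* and *Pdgfb* without any pool but wild-type pool 1 (0.157 and 0.156), for *Gata1* without any but PU.1-deficient pool 2 (0.152), for *Timp3* without wild-type pool 2, PU.1-deficient pool 1 or PU.1-deficient pool 3 (0.0693), and for *F2r* and *Gata2* without wild-type pool 3 (0.0539 and 0.0512). *Gp1bb* (-0.64) and *Slc35d3* (-1.37) fell less when no background was removed, and *Pdgfb* did not pass then (adjusted p = 0.0828). Without single pools, the counts of lower genes ran from 2 to 4 for the GPIb-IX-V and integrin list, from 1 to 2 for the thrombin receptor list, from 2 to 4 for alpha granules, from 2 to 3 for dense granules, from 0 to 3 for cytoskeleton and signaling, from 1 to 2 for caveolae and from 3 to 6 for transcription factors. The calls of *Vwf*, *Pf4*, *Gp5*, *Gp9* and *Cavin2* did not end without any single pool (highest adjusted p = 0.0149, 0.00385, 0.0138, 0.0189 and 0.00143).

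The pools differed in other genes as well. The *Spi1* probe was 8.54, 8.51 and 8.69 in wild-type pools and 6.62, 5.80 and 6.00 in PU.1-deficient pools (log2 fold change -2.44, adjusted p = 0.00112). *Kit*, which defines the LSK gate, was detected in all pools (-0.44, adjusted p = 0.221), while *Cd34* was lower (-1.66, adjusted p = 0.00336). *Flt3* did not pass (-1.21, adjusted p = 0.0621) and *Ly6a* was not tested here. Of 3 tested stem cell markers, *Slamf1* was lower, at least 1.35-fold (adjusted p = 0.0316). *Procr* (-0.36, adjusted p = 0.504) and *Mecom* (-0.33, adjusted p = 0.293) did not pass. *Slamf1* and *Mecom* were undetected in PU.1-deficient pools. The summed linear level of the 6 genes was 6834, 7352 and 6931 in wild-type and 869.7, 1512 and 927 in PU.1-deficient pools. Of 7 tested erythroid markers 6 were lower, and the sum of all 7 was 9403, 4122 and 2758 against 1180, 542.3 and 1401. Wild-type pool 1 was highest in this sum and in *Car1* and *Klf1*, but not in *Hba-a1* (10.29, against 10.71 in wild-type pool 2). The same pool was the highest wild-type pool for *Pf4* and not for the other 5 genes. Of 9 tested endothelial markers, whose cells also express *Vwf*, 5 were lower and 1, *Pecam1*, was higher (2.14), and their sum was 4241 to 6700 against 3203 to 5088. The endothelial marker *Plvap* was undetected in PU.1-deficient pools. Of 8 neutrophil markers 6 were higher, with a sum of 24490 to 42350 against 95250 to 112400. *Xist*, a sex-linked RNA, was higher in PU.1-deficient pools (9.94, 10.01 and 11.06, against 4.48, 4.48 and 5.18 in wild-type pools, log2 fold change 5.62, adjusted p = 0.000157). Its other probes were undetected in every wild-type pool. The other sex-linked genes tested, *Eif2s3y* (-0.67), *Kdm5d* (-0.89) and *Uty* (-0.28), were detected in all 6 pools. Of these only *Kdm5d* passed the threshold (*limma*, adjusted p = 0.0477), and its call ended without any single pool (adjusted p = 0.059 to 0.195). PU.1-deficient pools thus held *Xist* beside these Y-linked transcripts, and wild-type pools held the latter with little or no *Xist*. The labels do not give the sex of the mice, so sex cannot be told apart from genotype here. The part of these differences in the fall of the 6 genes was not tested. Without the 2 pools that stood farthest from the others of their genotype (PU.1-deficient pool 2, wild-type pool 1), all 6 genes were still lower past the threshold, with a median log2 fold change of -3.28.

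**Figure D4:**
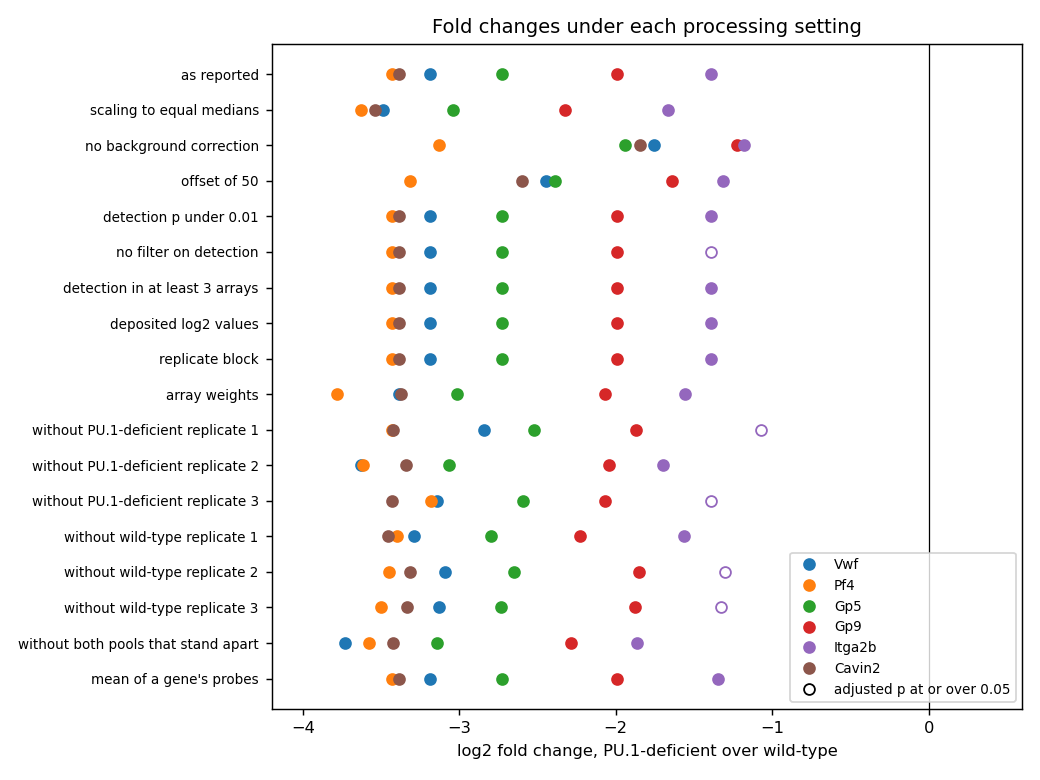
Log2 fold change (horizontal axis) of the 6 genes, by brightest probe, under each way of processing the data (vertical axis), with open circles where the adjusted p was at or over 0.05. Only *Itga2b* has open circles, and *Vwf* and *Cavin2* move most, to -1.75 and -1.84 with no background correction.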

How the data were processed

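The authors deposited, per probe and array, a non-normalized intensity with a detection p-value, and a table of log2 values made with neqc in limma (version not given in the sources used here) after dropping probes undetected in every sample. In the deposited intensity table the headings of intensity and detection p-value are exchanged within each pair, which the values show. The intensities of 45281 probes were normalized again with neqc (R 4.3.3, limma 3.58.1, background inferred from detection p-values, offset 16, quantile), which differed from the deposited log2 values by at most 0.026. Probes detected (p under 0.05) on 1 array or more, 22119 in all, entered a fit with lmFit and eBayes, 3 pools against 3, without covariates, with a Benjamini–Hochberg adjusted p under 0.05 as the threshold. The script was tested on simulated data. Detected probes per array numbered 15639 to 18174, and the number of arrays limits the precision. Nothing says more of the pools than that they are separate, so p-values measure the spread between these pools. Gene names came from the platform annotation, in which 16548 deposited probes had 1 symbol, 9 several and 3193 none, and the brightest probe over the 6 pools stands for a gene. The members and lists were chosen with earlier results of these data known.

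Named besides the 6 genes were, per list, up to 3 genes past the threshold with the largest change and up to 2 not past it with the highest mean, and the nearest profiles; *Timp3*, *Srgn*, *Mmrn1*, *Rgs18*, *Gata2*, *Tal1*, *Gfi1b* and *Pecam1* were named after their values had been seen. Motifs were counted on both strands of RefSeq promoters. Alternatives covered scaling, background, offset, detection filter, the deposited log2 values, a replicate block, array weights, the mean of a gene's probes, and leaving out each pool; leaving out 2 pools together was chosen after seeing the data.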

Additional observations from a re-analysis of the deposited data

How the results depend on the processing

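The 6 genes stayed lower in all 17 alternatives, and *Vwf*, *Pf4*, *Gp5*, *Gp9* and *Cavin2* stayed past the threshold in each. *Itga2b* lost its call with no filter on detection (-1.39, adjusted p = 0.103) and without single pools, where its log2 fold change ran from -1.70 to -1.07 (5 to 6 genes called), and that of its dimmer probe from -1.40 to -1.12. The median of the 6 genes was -3.26 with scaling to equal medians, -1.80 with no background correction, -2.42 with an offset of 50, -3.19 with array weights, -3.28 without both pools that stood apart and -3.20 to -2.68 without single pools. Over all probes, 526 were higher with equal medians, 3189 with array weights, 2837 without both pools and 603 to 1005 without single pools, and 1681 were lower with a replicate block, 4120 with array weights, 2878 without both pools and 306 to 1112 without single pools. With equal medians the median of all probes was -0.21 and 37.1% of called probes were higher, against 55.6%. *P2rx1* turned to -0.30 with equal medians, -0.39 with array weights, -0.24 to 0.23 without single pools and -0.51 without both pools, where *Nfe2* (-0.014) and *Mafg* (-0.083) turned as well. The causes were not tested. The labels do not say whether same-numbered pools of the 2 genotypes were prepared or run together. Deviations of same-numbered pools correlated at 0.72, 0.61 and -0.15. With the pool number as a replicate block all 6 genes kept their calls while 1596 probes were higher. *Vwf* and *Cavin2* were each undetected in 1 PU.1-deficient pool, so the size of their falls rests in part on background signal.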
